A study of Mus musculus with 4 samples.

Results

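The CHD chromatin remodelers are the 9 mouse genes Chd1 to Chd9. They were taken by symbol from a table of 22667 genes in mouse N2a neuroblastoma cells, and all 9 had enough reads to be among the 12497 genes compared. The 195 alternative splicing events assigned to these genes, of 91656 listed, were examined with them. The cells were left for 48 h with siRNA that targets no gene (siControl) or that targets Arglu1 (siArglu1), the gene of a glucocorticoid receptor coactivator that also acts in splicing. After that they were kept for 4 h in ethanol vehicle (Veh) or in dexamethasone (Dex), a synthetic glucocorticoid, at 100 nM. The 4 groups (siControl with Veh or Dex, siArglu1 with Veh or Dex) are each represented by 1 polyA-selected library, for which RNA of 3 cultures was pooled. Each ratio given here therefore compares a pair of libraries and has no replicate check, a difference between conditions cannot be told apart from one between libraries, and no p-value is given for a pair. The 95% intervals cover counting error only. N2a is a transformed mouse line. The siRNA acts on a population of cells that keeps part of its Arglu1 RNA.

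CHD proteins are ATP-driven motors of the SNF2 type that slide, space or evict nucleosomes. They carry tandem chromodomains, folds that bind histone tails, in front of the motor domain. CHD1 and CHD2 (subfamily I) space nucleosomes over active genes and work alongside transcription elongation factors. CHD3, CHD4 and CHD5 (subfamily II) are the alternative motor subunits of NuRD, the complex that joins nucleosome remodeling to histone deacetylation. CHD6 to CHD9 (subfamily III) include CHD7, which binds enhancers and is mutated in CHARGE syndrome, a disorder of neural crest derivatives, and CHD8, a regulator of Wnt signaling and of neurodevelopmental genes that is often mutated in autism.

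The depth was 66074574 to 86541444 reads on genes per library. Scaling factors (TMM) lay between 0.984 and 1.01. Of 11 markers of sympathetic neuroblasts, such as Hand2 and Stmn2, 11 had at least 1 cRPKM in each library. The knockdown threshold was passed in both pairs by 5 of these 11, 3 upward and 2 downward. Of all 12497 genes compared, 875 passed it upward and 1096 downward without Dex, and 773 and 741 with Dex. How many of all genes passed in both pairs was not counted, so the 5 markers have no matched reference. Of 13 markers of fibroblasts, glia, leukocytes and endothelium, at most 1 reached 1 cRPKM in any library and their summed level was 3.43 to 4.58. Here cRPKM is the authors' RPKM corrected for mappability (reads per kilobase of uniquely mappable sequence, scaled to library size), so it can be compared between genes. In bulk RNA, fewer cells that express a gene and less RNA per cell cannot be told apart. The siRNA target, Arglu1, stood at 92.6 cRPKM (Veh) and 99.9 (Dex) in siControl cells and 23.8 (Veh) and 22.6 (Dex) in siArglu1 cells. That is a level of 26.3% of control (95% interval 25.2 to 27.5) in vehicle and 22.5% (21.7 to 23.4) in Dex.

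Chd4, the main NuRD motor of proliferating cells, was by far the most abundant family member. Its level was 93.6 cRPKM (Veh) and 88.6 (Dex) in siControl cells and 57.2 (Veh) and 68.3 (Dex) in siArglu1 cells. It made up 48.5% to 50.5% of the summed cRPKM of the family in every library, and its mean of 76.9 lay at percentile 90.4 of the genes compared. Chd8 followed with a mean of 19.3 cRPKM, then Chd1 with 15.9 and Chd3 with 15.2. A lower tier held Chd6 with 8.09, Chd2 with 6.20, Chd7 with 5.80 and Chd9 with 5.57. Chd5, the NuRD motor known for its expression in neurons, was lowest at 1.83 (range 1.44 to 2.04), at percentile 19.2.

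**Figure D1:**
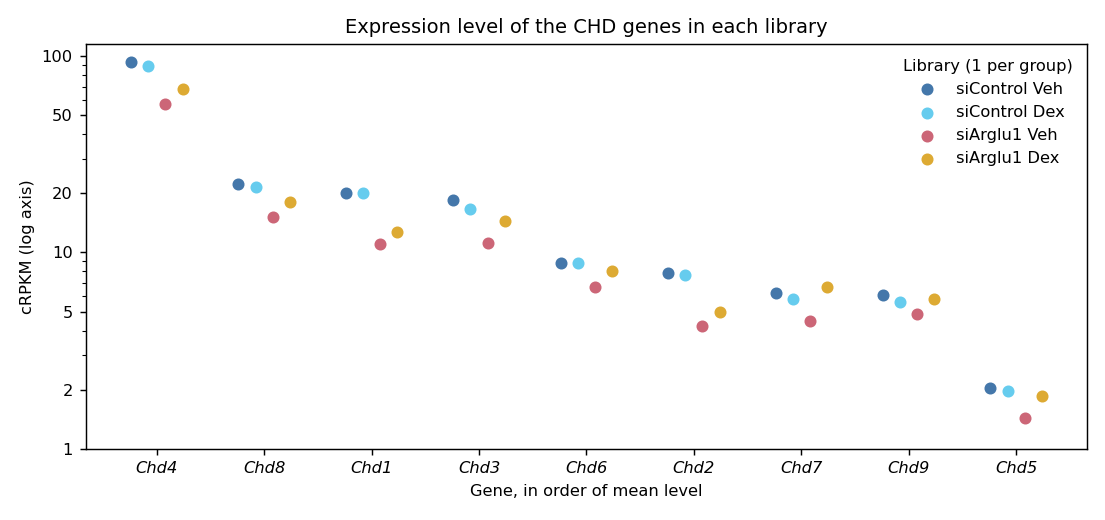
Level of the 9 CHD genes in cRPKM (log axis) in each of the 4 libraries, 1 point per library, with genes ordered by mean. Chd4 lay between 57.2 and 93.6 and Chd5 between 1.44 and 2.04, and the siArglu1 Veh point was the lowest of the 4 for each gene.

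The order of neighbouring genes was in part a matter of the library. Chd8 was above Chd1 in all 4 libraries. Chd1 was above Chd3 in both siControl libraries (20.01 against 18.42 cRPKM in vehicle) and below it in both siArglu1 libraries (11.02 against 11.23 in vehicle and 12.67 against 14.45 in Dex). Chd2 was likewise above Chd7 in the siControl libraries (7.90 against 6.21 in vehicle) and below it in the siArglu1 libraries (4.22 against 4.50 in vehicle and 4.96 against 6.70 in Dex). The 4-library ranges of Chd2, Chd7 and Chd9 overlapped, and with 1 library per group their order is a description.

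Summed over the 9 genes, the family took 1388 CPM (Veh) and 1331 (Dex) in siControl cells and 899.9 (Veh) and 1068 (Dex) in siArglu1 cells. Each of the 9 members had fewer scaled reads after Arglu1 knockdown in vehicle, with log2 ratios of -0.87 to -0.28 and a median of -0.53, where the median of all genes compared was 0.00. The size rule for knockdown asked for a log2 ratio of 0.81 or more, up or down, and 2 of the 9 passed it, Chd1 and Chd2, both lower. Of all genes compared, 15.8% passed this rule in vehicle, and 8.77% passed it in the lower direction.

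Chd1 and Chd2, the subfamily I members, had the lowest ratios in both knockdown pairs. Chd1 had 20.01 cRPKM (Veh) and 20.02 (Dex) in siControl cells and 11.02 (Veh) and 12.67 (Dex) in siArglu1 cells. Both siArglu1 libraries were below both siControl libraries. The log2 ratio was -0.83 in vehicle (95% interval -0.87 to -0.78), which is 56.3% of the siControl level, and -0.67 in Dex (-0.71 to -0.63). Chd2 had 7.90, 7.72, 4.22 and 4.96 cRPKM in the same order of libraries, again with no overlap between siControl and siArglu1. Its log2 ratio was -0.87 in vehicle (-0.94 to -0.80), or 54.7% of siControl, and -0.64 in Dex (-0.71 to -0.58). Both vehicle intervals include the threshold of 0.81. Chd3 and Chd4 were the next members on its other side. How many of all genes compared, or of genes of similar length, had both siArglu1 libraries below both siControl libraries was not counted.

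Among the NuRD motors, Chd4 had a log2 ratio of -0.68 in vehicle (-0.70 to -0.65) and -0.38 in Dex (-0.40 to -0.36). For Chd3, Chd4 and Chd5 alike, both siArglu1 libraries lay below both siControl libraries in cRPKM. Chd3, with 18.42 cRPKM (Veh) and 16.59 (Dex) in siControl cells and 11.23 (Veh) and 14.45 (Dex) in siArglu1 cells, had the same vehicle ratio of -0.68 (-0.73 to -0.63) and a smaller one of -0.21 in Dex (-0.25 to -0.16). Chd5 rested on 906 to 1520 reads per library. Its level was 2.04, 1.96, 1.44 and 1.86 cRPKM in the same order, with ratios of -0.47 (-0.60 to -0.35) in vehicle and -0.08 (-0.19 to 0.03) in Dex, where the interval includes 0.

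In subfamily III, Chd8 had 22.38 cRPKM (Veh) and 21.48 (Dex) in siControl cells and 15.11 (Veh) and 18.13 (Dex) in siArglu1 cells, and its log2 ratios were -0.53 (-0.57 to -0.49) in vehicle and -0.25 (-0.29 to -0.22) in Dex. Chd6 had 8.89, 8.79, 6.66 and 8.03 cRPKM in the same order, with ratios of -0.38 (-0.44 to -0.33) and -0.14 (-0.19 to -0.09). For both genes the siArglu1 libraries were below the siControl libraries, and the Dex pair was closer. Chd7 crossed over. Its level was 6.21 cRPKM (Veh) and 5.77 (Dex) in siControl cells and 4.50 (Veh) and 6.70 (Dex) in siArglu1 cells, so that siArglu1 Veh was the lowest and siArglu1 Dex the highest library. The log2 ratio was -0.43 (-0.50 to -0.36) in vehicle and 0.21 (0.15 to 0.27) in Dex. Chd9 had 6.04, 5.59, 4.85 and 5.81 cRPKM, with a ratio of -0.28 (-0.35 to -0.22) in vehicle and 0.05 (-0.01 to 0.10) in Dex.

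In the knockdown pair under Dex, 0 of the 9 members passed the size rule, where 12.1% of all genes compared did. The members' log2 ratios ran from -0.67 to 0.21 with a median of -0.21. For each of the 9 genes the ratio was higher in Dex than in vehicle, by 0.16 for Chd1, 0.23 for Chd2, 0.24 for Chd6, 0.28 for Chd8, 0.29 for Chd4, 0.33 for Chd9, 0.39 for Chd5, 0.47 for Chd3 and 0.64 (0.55 to 0.73) for Chd7. The lower bound of each of these intervals was above 0 for counting error. The median difference was 0.29 over the members, 0.01 over all genes compared and 0.22 over the 768 other genes in the members' range of length.

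**Figure D2:**
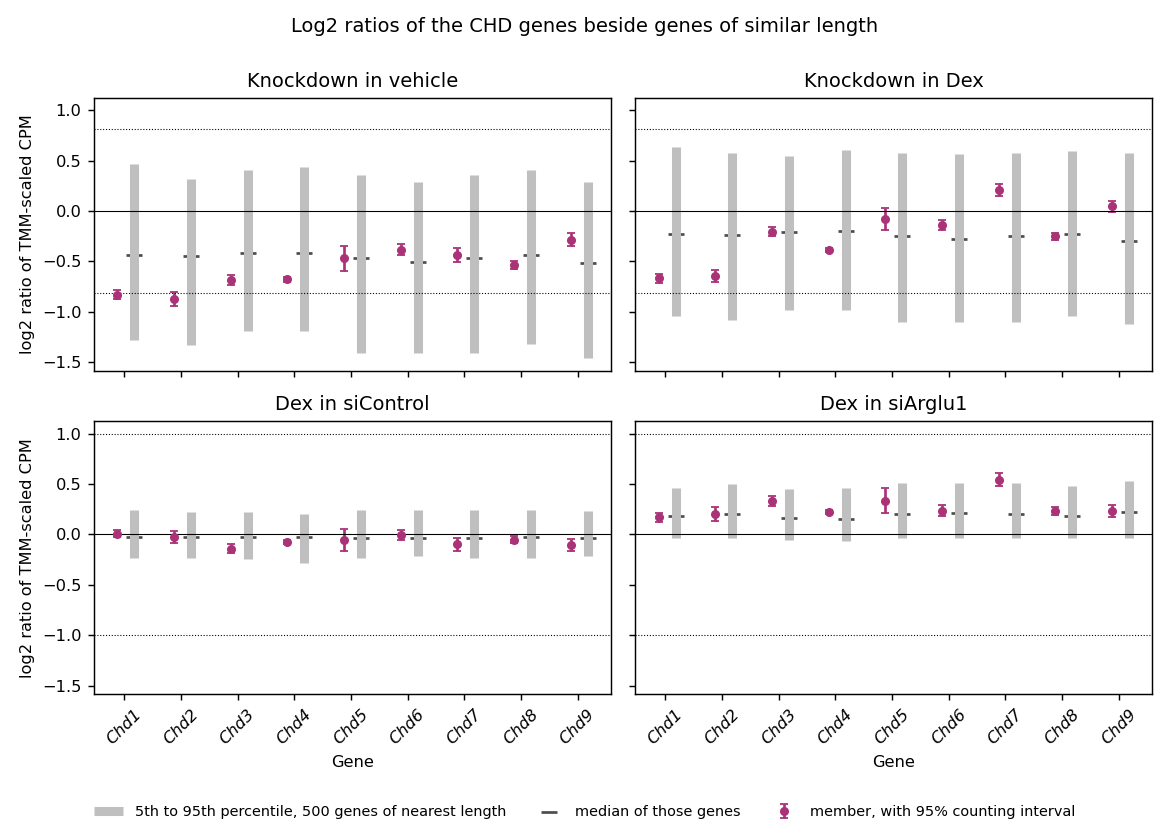
Log2 ratio of each CHD gene (points, with 95% counting intervals) in the 4 pairs of libraries, beside the median and the 5th to 95th percentile of the 500 compared genes nearest in mappable length (grey). Dotted lines mark the size rules, and the points of Chd1 (-0.83) and Chd2 (-0.87) in vehicle lie past the lower one, while all points but that of Chd7 in the lower right plot lie inside the grey bars.

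Length went along with these ratios. The mappable length of the members, computed from the deposited reads and cRPKM, was 6645 nt for Chd4 to 11466 nt for Chd9, which is percentile 92.9 to 99.1 of the genes compared. Across those genes, which are no replicates, the log2 ratio fell with length for knockdown in vehicle (Spearman correlation -0.398), knockdown in Dex (-0.229) and Dex in siControl (-0.163), and it rose with length for Dex in siArglu1 (0.543). The 768 other genes in the members' length range had a median of -0.44 in vehicle and -0.23 in Dex, beside -0.53 and -0.21 for the members. Of these genes 83.1% were below 0 in vehicle and 20.6% passed the size rule downward. The part of length in the members' ratios was not tested.

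Read against genes of their own length, the members were spread to both sides. With the trend on length removed, their median was -0.08 in vehicle and -0.02 in Dex, and 5 of 9 were below 0 in each pair. Chd1 kept -0.39 in vehicle and -0.45 in Dex, and Chd2 kept -0.38 and -0.39. Of the 500 genes nearest in length to Chd1, 19.0% had a lower ratio in vehicle and 13.2% in Dex, and for Chd2 the shares were 19.4% and 15.4%. Chd9 stood at 0.31 and 0.35 after the trend was removed, with 71.2% and 78.4% of its neighbours in length below it. Chd7 stood at 0.08 and 0.47, with 53.8% of its neighbours below it in vehicle and 84.2% in Dex. With the trend removed, 0 of 9 members passed the size rule in any of the 4 pairs. Of 12484 genes, 749 passed upward and 886 downward for knockdown in vehicle, and 748 and 700 for knockdown in Dex. The counts were 40 and 18 for Dex in siControl and 45 and 11 for Dex in siArglu1.

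**Figure D3:**
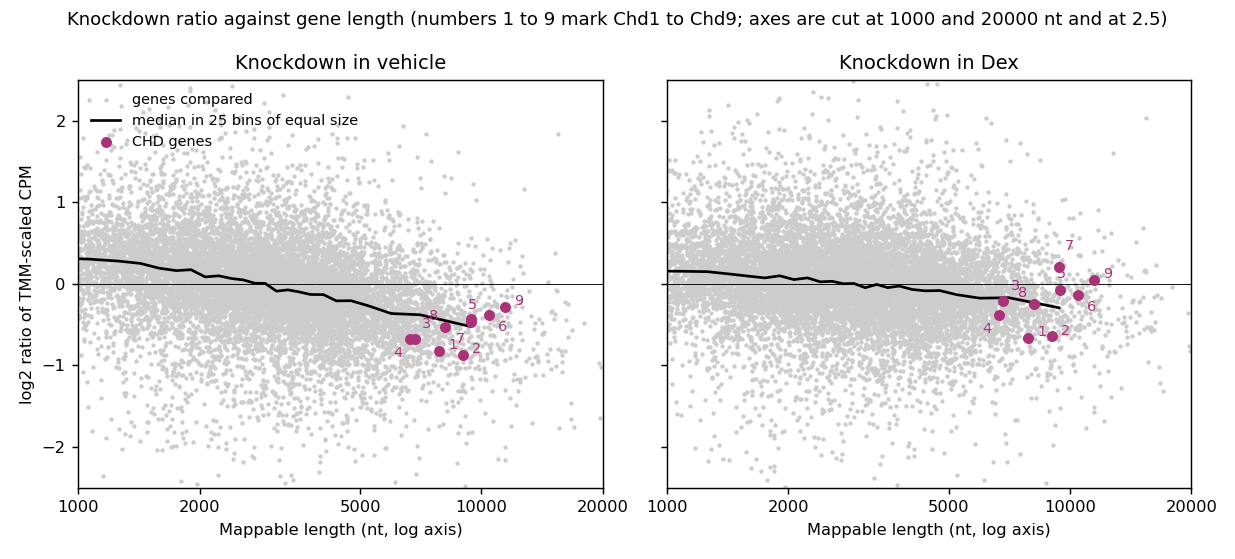
Log2 knockdown ratio against mappable length (log axis) for the genes compared (grey), the running median in 25 bins of equal size (line) and the CHD genes (numbered points), in vehicle and in Dex. The 768 other genes of the members' lengths had a median of -0.44 in vehicle, and in that plot Chd1 and Chd2 lie below the line while Chd9 lies above.

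The loss of reads was not even along the genes. Alternative splice sites along a gene come with counts of junction reads, and these were summed over the 5′-most and the 3′-most events of each gene for the 8 members with at least 20 such reads per sum and library (not Chd5). This split was chosen after the data had been seen. In Chd4, the 5′ events had a log2 knockdown ratio of -1.18 in vehicle and the 3′ events one of -0.58. In Chd8 they were -1.53 and -0.55, in Chd1 -1.82 and -1.12, in Chd2 -2.47 and -1.39, and in Chd7 -1.13 and -0.20. In vehicle both sums had a lower ratio than reads over the whole gene in Chd1, Chd2, Chd6, Chd8 and Chd9, with -1.39 and -0.995 against -0.28 in Chd9 and -1.53 and -0.547 against -0.533 in Chd8. In each of the 8 members the 5′ ratio was below the 3′ ratio in both knockdown pairs, with a median difference of -0.81 in vehicle and -0.42 in Dex. Over 2919 genes treated in the same way the median difference was -0.31 in vehicle and -0.17 in Dex, which is the same direction. These 2919 genes were not matched to the members in length. In the Dex pair of siControl libraries the members' median difference was -0.05, and in that of siArglu1 libraries it was 0.19, beside -0.02 and 0.13 over the 2919 genes. The part of the uneven coverage in the whole-gene ratios was not tested.

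**Figure D4:**
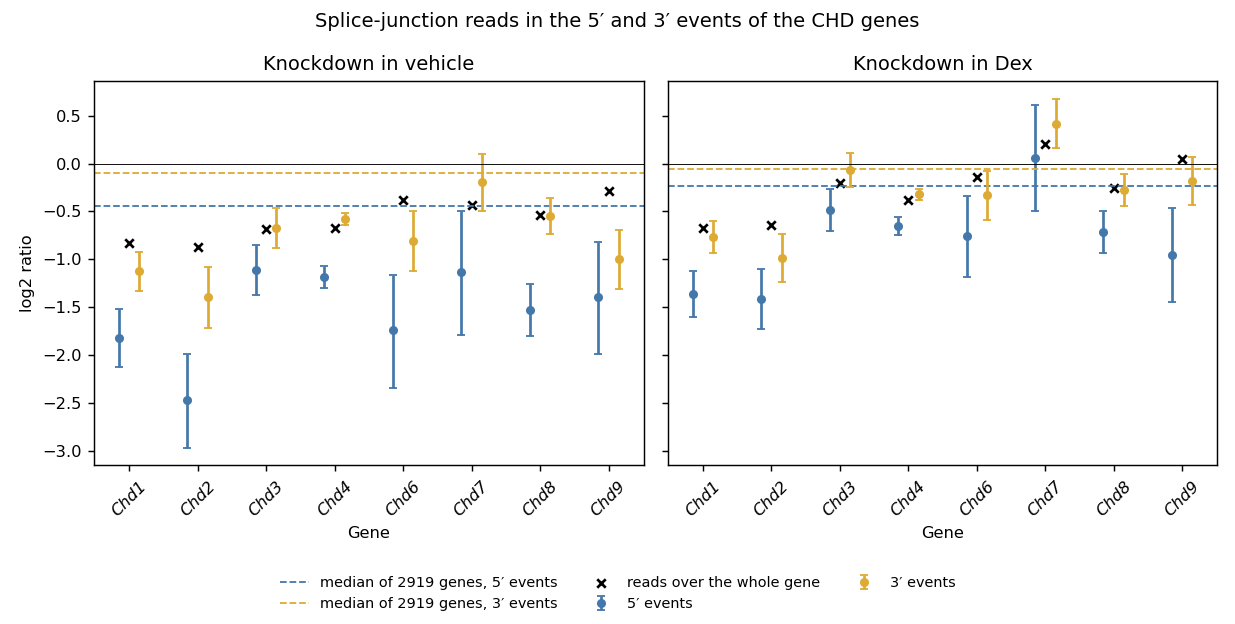
Log2 knockdown ratios from junction reads of 5′ (blue) and 3′ (yellow) splice-site events of 8 CHD genes, with 95% counting intervals, and from reads over the whole gene (crosses). Dashed lines are medians of 2919 genes (-0.45 for 5′ and -0.10 for 3′ events in vehicle), and each blue point lies below its yellow one.

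In siControl cells the CHD genes had nearly the same scaled reads with and without Dex. The size rule for Dex was a log2 ratio of 1, and 0 of 9 members reached it, where 0.464% of all genes compared did. The ratios ran from -0.14 for Chd3 (-0.19 to -0.10) to 0.01 for Chd1 (-0.03 to 0.05), with a median of -0.05. In siArglu1 cells 0 of 9 passed, beside 0.392% of all genes, and the 9 ratios were above 0, from 0.17 for Chd1 (0.12 to 0.22) to 0.54 for Chd7 (0.48 to 0.61), with a median of 0.23. The 768 genes in the same length range had a median of 0.19 in that pair. Chd7 was the member farthest from its neighbours in length, 95.8% of which had a lower Dex ratio in siArglu1 cells, and the shares were 86.2% for Chd3 and 80.4% for Chd5. These comparisons share their libraries with the knockdown pairs, and a rise of the siArglu1 Dex library over siArglu1 Veh is the same measurement as a smaller knockdown ratio in Dex.

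The genes whose profile over the 4 libraries was nearest to the median profile of the members were Acvr1b and Prrc2b, at Euclidean distances of 0.0173 and 0.0207 in centred log2 CPM, of 10692 candidates. Chd8 was the member nearest to that median profile at 0.036, and Chd1 (0.381) and Chd2 (0.384) were the farthest. The likeness rests on 4 values per gene.

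Most of the listed genes that work with CHD proteins had knockdown ratios below 0, and some lay above. In vehicle 7 of 12 NuRD subunits and 15 of 17 other SNF2-type ATPases were below 0. So were 9 of 11 elongation factors and H3.3 genes and 8 of 9 other partners. The counts in Dex were 9, 15, 10 and 8. In each pair 49.7% of all genes compared were below 0. Of the 768 genes in the members' length range, 83.1% were below 0 in vehicle and 72.5% in Dex. The partner lists hold shorter genes, so these shares are no matched reference for them. Their median mappable length was 1987 nt for NuRD subunits and 6064 nt for other ATPases. It was 3460 nt for elongation factors and H3.3 and 3574 nt for other partners, beside 6645 nt for Chd4, the shortest member. Gatad2b, Atrx and Cbx5 passed the knockdown rule in both pairs, and the other partners below were named after their values were seen. Of 12 NuRD subunits other than the motors, 2 were past the rule downward and 1 upward in vehicle, and 1 downward in Dex, beside 15.8% and 12.1% of all genes compared in either direction. The medians were -0.08 and -0.34, and -0.19 and -0.35 with the length trend removed. Gatad2b, a scaffold subunit that ties CHD motors to the rest of NuRD, had 10.4 cRPKM (Veh) and 10.1 (Dex) in siControl cells and 3.72 (Veh) and 5.35 (Dex) in siArglu1 cells, with log2 ratios of -1.45 and -0.93, or -1.60 and -1.02 with the length trend removed. Its paralog Gatad2a was at -0.92 in vehicle and -0.79 in Dex, and the histone chaperone subunit Rbbp7 was at 0.87 and 0.68. With the length trend removed, Gatad2a was at -0.65 and -0.67 and Rbbp7 at 0.76 and 0.61, all inside the rule. The deacetylase Hdac2 was at -0.27 and -0.39. Hdac1, Cdk2ap1 and Cbx3 are uncertain, because 248, 36 and 112 nt of them were mappable.

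Of 17 other SNF2-type ATPases, 4 were past the rule downward in vehicle and 1 in Dex, with 0 upward in either pair and medians of -0.42 and -0.34. Downward calls in vehicle made up 8.77% of all genes compared and 20.6% of the 768 genes in the length range of the CHD members. In Dex, 741 of 12497 genes compared passed downward, and 9.51% of those 768 genes. With the length trend removed the medians were -0.14 and -0.13. Atrx, the ATPase that places histone H3.3 at heterochromatin and telomeres, passed in both pairs with ratios of -1.17 and -0.88 and levels of 14.8, 14.2, 6.43 and 7.74 cRPKM in the order used above. The other 3 in vehicle were Smarca2 (-0.86), Ep400 (-0.84) and Shprh (-0.83), and Smarca4, the BRG1 motor of BAF complexes, was at -0.22 in vehicle and 0.06 in Dex. With the length trend removed none of these calls held, with -0.62 and -0.60 for Atrx in the 2 pairs and, in vehicle, -0.55 for Smarca2, -0.28 for Ep400 and -0.33 for Shprh. Of 11 elongation factors and H3.3 genes, which work beside CHD1 and CHD2, 0 passed in either knockdown pair, beside 15.8% and 12.1% of all genes, with medians of -0.26 and -0.16 (-0.18 and -0.14 with the length trend removed). Of 9 other partners, 1 passed downward in each pair, beside 8.77% of all genes downward in vehicle and 741 of 12497 downward in Dex. The medians were -0.20 and -0.37, and -0.38 and -0.39 with the length trend removed. The gene that passed was Cbx5, the heterochromatin protein HP1 alpha, with 60.5, 58.9, 28.7 and 33.1 cRPKM in the same order and ratios of -1.04 and -0.84. With the length trend removed its ratios were -0.56 and -0.60, inside the rule in both pairs. Ctnnb1, the beta-catenin gene whose product CHD8 binds, was at 0.59 and 0.58.

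Splicing of the CHD genes was for the most part the same in the 4 libraries. PSI gives, in percent, how often an exon is included or a splice site used. Of the 195 events of the family, 151 had a PSI in all 4 libraries with enough coverage, and 81 had full coverage (scored OK or above) throughout. Of the 156 sites and exons in these events, 114 (73.1%) stayed within 5 PSI of 0 or 100 in each library, beside 72.0% of all sites compared. A difference of at least 15 PSI was seen in 3 of 151 events for knockdown in vehicle, where 1.96% of all events had one. It was seen in 1 event for knockdown in Dex (1.52% of all events), in 2 for Dex in siControl (0.719% of all events) and in 1 for Dex in siArglu1 (0.948% of all events). No member event passed in both knockdown pairs. The median absolute difference was 0.12 to 0.18 PSI over the members' events and 0.52 to 0.63 over all events compared. The 2 sets differ in coverage, since 81 of 151 member events had full coverage throughout and 46423 of 57183 events overall. The part of coverage in these medians was not tested. No event of the family was listed as a microexon.

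Alternative sites used at intermediate levels in every library were found in Chd3, Chd4, Chd7 and Chd8. A Chd9 site that passed 15 PSI, with values of 59.1 to 83.9, is described with them. Sequences around 6 of them, and around a Chd5 exon of 78 nt that passed 15 PSI and was included at 83.3% or more, are printed from GENCODE M21 transcripts (GRCm38, transcript strand), with the alternative bases or exon in capitals between 24 bases of flank on each side. They were matched to the events by the lengths of exon and neighbouring intron, and the positions are those of the deposited tables on mm9 and span the whole exon in its long form. The 2 Chd3 sites passed 15 PSI with full coverage, and the other sites and exons were named after their values were seen. Each sequence in capitals is coding and has a length that is a multiple of 3.
Chd3 18 nt: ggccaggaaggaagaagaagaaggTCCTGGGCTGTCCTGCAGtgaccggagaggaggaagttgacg
Chd4 39 nt: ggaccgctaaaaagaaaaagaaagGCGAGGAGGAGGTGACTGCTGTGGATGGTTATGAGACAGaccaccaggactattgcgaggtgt
Chd4 21 nt: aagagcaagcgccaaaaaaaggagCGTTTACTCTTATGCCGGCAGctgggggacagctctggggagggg
Chd7 3 nt: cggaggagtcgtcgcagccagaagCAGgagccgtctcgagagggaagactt
Chd8 24 nt: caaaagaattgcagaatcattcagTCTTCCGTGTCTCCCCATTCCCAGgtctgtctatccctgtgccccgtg
Chd9 3 nt: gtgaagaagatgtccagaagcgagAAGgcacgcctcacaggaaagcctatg
Chd5 78 nt: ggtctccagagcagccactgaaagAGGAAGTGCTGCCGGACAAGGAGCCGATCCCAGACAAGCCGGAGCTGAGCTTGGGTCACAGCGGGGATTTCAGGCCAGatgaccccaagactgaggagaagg

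The Chd3 site is an alternative 3′ splice site of exon 8 of 40 (chr11:69174551-69174744, minus strand), where the upstream acceptor adds the 18 nt printed. The long form made up 48.0% (Veh) and 50.4% (Dex) of junction reads in siControl cells and 32.7% (Veh) and 40.7% (Dex) in siArglu1 cells, on 127, 123, 52 and 91 junction reads. Both siArglu1 libraries were below both siControl libraries. The difference was -15.3 PSI in vehicle and -9.75 in Dex, and the exact intervals of the vehicle pair overlapped (39.1 to 57.1 against 20.3 to 47.1). A second Chd3 site is an alternative 5′ splice site that adds 46 nt, not a multiple of 3, to an exon near the 3′ end (chr11:69160074-69160315, minus strand). Its PSI was 31.4 (Veh) and 38.9 (Dex) in siControl cells and 25.5 (Veh) and 20.4 (Dex) in siArglu1 cells, on 96 to 177 reads. The knockdown difference in Dex was -18.5 PSI, and the intervals of that pair did not overlap (30.9 to 47.4 against 14.7 to 27.0), while in vehicle it was -5.86. Both sites had full coverage in all 4 libraries, and the long form was lower in siArglu1 than in siControl libraries for both.

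Chd4 showed 2 such acceptors with ample reads. The 39-nt extension of exon 9 of 39 (chr6:125052450-125052628, plus strand) had a PSI of 55.9 (Veh) and 61.2 (Dex) in siControl cells and 60.7 (Veh) and 63.5 (Dex) in siArglu1 cells on 211 to 562 reads. The 21-nt extension of exon 4 of 39 (chr6:125050796-125051011) had 23.0, 22.1, 28.4 and 28.9 in the same order on 167 to 494 reads. For the 21-nt site the siArglu1 values were above those of siControl by 5.33 PSI in vehicle and 6.80 in Dex, which is under the threshold of 15. The Chd8 24-nt extension (chr14:52832238-52832418, minus strand), in exon 5 of 18 of the matched transcript, had 36.9, 42.0, 39.5 and 46.0. Exon numbers given here are those of the matched GENCODE transcript, which may not be the full-length form of the gene.

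Chd7 and Chd9 each had a tandem acceptor 3 nt apart, in exons of 161 nt in both genes, exon 32 of 38 in Chd7 (chr4:8783818-8783978, plus strand) and exon 33 of 40 in Chd9 (chr8:93558804-93558964, plus strand). In the printed sequences the Chd7 extension reads CAG and the Chd9 extension AAG. Inclusion of the Chd7 bases was 27.1% (Veh) and 30.8% (Dex) in siControl cells and 29.2% (Veh) and 26.7% (Dex) in siArglu1 cells on 52 to 90 reads. The 4 exact intervals overlapped, with 17.2 to 39.1 in siControl Veh and 17.9 to 37.0 in siArglu1 Dex. Inclusion of the Chd9 bases was 59.1%, 83.6%, 71.9% and 83.9% in the same order on 66, 61, 32 and 62 reads. Both Dex libraries were above both vehicle libraries. The Dex difference in siControl was 24.5 PSI, with exact intervals of 46.3 to 71.0 for vehicle and 71.9 to 91.8 for Dex. In siArglu1 cells the intervals were 53.3 to 86.3 for vehicle and 72.3 to 92.0 for Dex and overlapped.

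The remaining events past 15 PSI rested on few reads. A Chd2 alternative 5′ splice site of 91 nt (chr7:80649783-80650009) had a PSI of 7.89, 4.44, 28.6 and 0 in the same order, on 51, 45, 7 and 24 reads, and the value of siArglu1 Veh has an interval of 3.67 to 71.0. The Chd5 exon of 78 nt (chr4:151756444-151756521, exon 34 of 42) had a PSI of 100, 90.2, 83.3 and 91.7, with very low coverage in siArglu1 Veh. A second Chd5 exon, of 115 nt (chr4:151759833-151759947, exon 40 of 42), had 81.4, 61.9, 73.9 and 71.4. The coverage of Chd5 allowed 3 of its 12 listed events to be compared, against 31 of 32 for Chd7 and 16 of 16 for Chd8, so a change in Chd5 splicing was for the most part not detectable at this depth.

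**Figure D5:**
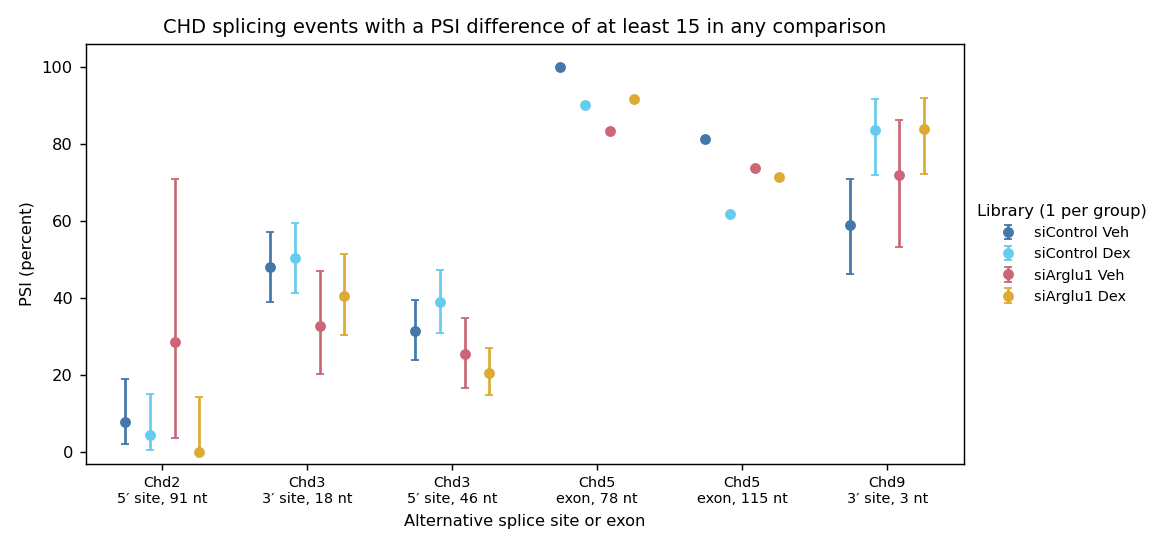
PSI in percent of the 6 CHD splice sites and exons with a difference of at least 15 PSI in any comparison, 1 point per library, with exact 95% intervals from junction reads for splice sites and none for exons. The Chd3 46-nt site was at 38.9 in siControl Dex and 20.4 in siArglu1 Dex, and the Chd9 3-nt site was at 59.1 in siControl Veh and 83.6 in siControl Dex.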

How the data were processed

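RNA of 3 cultures per group was pooled by the authors into 1 TruSeq V2 library, sequenced on a HiSeq2500. The submitters' processing notes name Bowtie and mm9, and the sources used here give no annotation. The deposited table holds the authors' count of reads per gene, not normalized, and their cRPKM, an RPKM corrected for mappability. The deposited splicing values are PSI in percent from vast-tools with a coverage score in words. Columns with ratios computed by the authors were not used, and 0 columns belong to unknown samples.

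Here reads were scaled with TMM factors (edgeR 4.0.16, limma 3.58.1, R 4.3.3) to log2 CPM (prior count 1), and genes with 75 or more reads summed over the 4 libraries were compared. Size rules were a log2 ratio of 0.81 for knockdown, 1 for Dex and 15 PSI for splicing. Ratios are siArglu1 over siControl and Dex over Veh. Compared events had a PSI in each of the 4 libraries and at least LOW coverage in 3. Several sites of an event counted once. Ratio and PSI intervals are exact at the 95% level, and intervals of differences between ratios use the normal approximation of counting error. The length trend was a lowess of span 0.3. The additive model is edgeR's quasi-likelihood test with Benjamini-Hochberg adjustment and 1 residual degree of freedom. Python 3 with SciPy was used for splicing. The rule for named genes took the 9 members, Arglu1, partner genes past 0.81 in both knockdown pairs (at most 4 a list), the 3 nearest profiles (1 of them is not reported here), and events past 15 PSI with full coverage. Other partner genes and events in the text were named after their values were seen. The members and lists were chosen with earlier results of these data known. On simulated data with 200 of 12497 genes changed by 1.5 in log2, the size rule recovered 100% for knockdown in vehicle and 99.5% for Dex in siControl. There 52 and 10 unchanged genes passed it. The simulated counts had a spread set in advance and no trend on length, so these numbers do not measure false calls in real libraries. With 200 of 28802 sites moved by 30 PSI, the rule of 15 PSI found 99.0%, with 235 unchanged sites past it. The planted changes were well above the rules, so recovery of changes as small as those of the members was not tested.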

Additional observations from a re-analysis of the deposited data

Results flagged for a closer look

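The log2 ratios below had opposite signs under the same contrast, with counting intervals that exclude 0 on both sides. No such difference was tested, since each group is 1 library. Chd7 had a log2 knockdown ratio of -0.43 in vehicle and 0.21 in Dex. For Dex, the log2 ratio in siControl and in siArglu1 was -0.14 and 0.33 for Chd3, -0.071 and 0.22 for Chd4, -0.10 and 0.54 for Chd7, -0.050 and 0.23 for Chd8, and -0.10 and 0.23 for Chd9. In the siArglu1 pair the genes of the members' length range had a median of 0.19, and the part of length was not tested. With the length trend removed, Chd7 stood at 0.08 and 0.47 for knockdown and Chd9 at -0.059 and -0.026 for Dex. These pairs of opposite signs are therefore not kept. The Dex values with the trend removed were -0.11 and 0.17 for Chd3 and -0.059 and 0.33 for Chd7. They were -0.039 and 0.070 for Chd4 and -0.015 and 0.040 for Chd8, both close to 0. The signs of these genes stay opposite, but values with the trend removed have no intervals, so the criterion above was not applied to them. Of the splicing events with a difference of at least 15 PSI in either pair of a contrast, 2 had differences of opposite sign. For these, counting intervals do not separate the libraries or are not available. Smaller differences of opposite sign, such as -7.49 and 9.53 for knockdown at the Chd5 exon of 115 nt, were not listed. The PSI difference for knockdown in vehicle and in Dex was 20.7 and -4.44 for the Chd2 5′ splice site of 91 nt, which had 7 junction reads in siArglu1 Veh and overlapping PSI intervals in both pairs, and -16.7 and 1.43 for the Chd5 exon of 78 nt, which has no interval.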

How the results depend on the processing

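No paired analysis was possible because each group has 1 library. For knockdown in vehicle, the count of members past the rule went from 2 to 1 with upper quartile factors or without the filter on low counts, to 0 with the length trend removed or at a threshold of 1.5, and to 7 in the additive model, which pools vehicle and Dex and also calls 7 for knockdown in Dex (all but Chd7, adjusted p = 0.28, and Chd9, adjusted p = 0.234). This edgeR model rests on 1 residual degree of freedom and called 3847 genes higher and 3857 lower. It called 0 members for Dex, beside 124 genes higher and 6 lower of 12497. For knockdown in vehicle, 972 of 12497 genes were past the rule upward and 988 downward with upper quartile factors. The counts were 749 and 886 of 12484 with the length trend removed, and 160 and 227 of 12497 at a threshold of 1.5. Without the filter they were 1923 and 2379 of 22667. The median of -0.53 in vehicle became -0.079, and that of -0.21 in Dex became -0.019, with the length trend removed. RLE factors, deposited cRPKM and a prior count of 5 left the count at 2, beside 863, 787 and 833 genes upward and 1114, 1170 and 1057 downward. In those settings, and with upper quartile factors and no filter, 0 member ratios had another sign. With the length trend removed, 4 changed sign for knockdown in vehicle (Chd5, Chd6, Chd7, Chd9), 2 in Dex, and 2 and 4 in the Dex pairs. Events past the PSI rule numbered 7, 3, 5 and 6 at 10 PSI, in the order knockdown in vehicle, knockdown in Dex, Dex in siControl and Dex in siArglu1. They numbered 0, 0, 0 and 1 at 25 PSI, 1, 1, 0 and 0 with full coverage in all libraries, and 5, 4, 5 and 7 with no coverage minimum, which is 2.66%, 2.13%, 2.66% and 3.72% of member events beside 6.85%, 6.10%, 5.30% and 5.73% of all events. At 10 PSI the shares were 4.64%, 1.99%, 3.31% and 3.97% beside 4.40%, 3.66%, 2.16% and 2.73%. With full coverage 1.22%, 1%, 0.230% and 0.237% of all events passed, and at 25 PSI 0.381%, 0.322%, 0.0874% and 0.187%. Leaving out complex cassette exons left the 4 counts as they were. The cause of these moves beyond the changed rule itself was not tested.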
